A study of Homo sapiens with 12 samples.

Results

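Extracellular vesicles (EV) released by human induced pluripotent stem cells (hiPSC) before differentiation were compared with those released by immature cardiomyocytes made from the same cells. The comparison used 6 of the 12 small RNA libraries of the series, namely 3 of hiPSC-EV and 3 of CMi-EV, chosen by group alone and by no measured value. The remaining libraries came from EV of cardiac progenitors (CPC-EV) and of cardiomyocytes after longer maturation (CMm-EV). Every library was made from the established line iPS(IMR90)-4, so each group is 1 line and the libraries of a group are separate cultures and EV preparations of it. No transgene, knockout or Cre allele is stated for the line. hiPSC-EV came from medium conditioned for 24 h at day 0 by undifferentiated cells grown in 2D on Matrigel-coated plates in the expansion medium TeSR-E8. CMi-EV came from medium conditioned for 48 h at day 15 by cells cultured in RPMI with B27 as 3D aggregates in orbital suspension, after induction with CHIR99021, Activin A, ascorbic acid and IWR1. Stage, medium, hours of conditioning and 2D or 3D culture therefore cannot be told apart in this comparison. EV of both groups had been isolated by ultracentrifugation followed by an OptiPrep density gradient. The question addressed was how the small RNA cargo of the EV differs between the pluripotent and the early cardiomyocyte stage.

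MicroRNA (miRNA) are short RNA that are cut from a hairpin precursor and guide a silencing complex to messenger RNA. Pairing is led by the seed, the bases near the 5′ end, so that miRNA with the same seed are grouped into families. Many hairpins lie close together and are cut from one primary transcript, such as the miR-302/miR-367 cluster of pluripotent cells, which is driven by OCT4 and SOX2. Cells load miRNA and fragments of other RNA into EV, and the cargo of EV is used as a readout of the state of the cells that release them. In bulk EV preparations, fewer vesicles of a kind, less RNA per vesicle and a smaller share among the other RNA cannot be told apart.

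The mature sequences that the miRNA results turn on are printed here by shared seed, 5′ to 3′, with the seed (bases 2 to 8) in capitals. They are taken from RefSeq on GRCh38.p14, where 984 of the 1133 miRNA listed in the files were matched by name. The prefix hsa of the files is left out. The first family, with the seed AAGUGCU, holds miRNA of the miR-302/miR-367 cluster at chr4:112647874-112648557 (hg38, minus strand, in exons of the noncoding host MIR302CHG) and of the miR-371 to miR-373 cluster on chromosome 19.
miR-302a-3p: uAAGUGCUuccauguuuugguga
miR-302b-3p: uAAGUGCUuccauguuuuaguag
miR-302c-3p: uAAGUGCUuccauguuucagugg
miR-302d-3p: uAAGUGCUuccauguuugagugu
miR-372-3p: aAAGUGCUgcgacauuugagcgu
The opposite arm of MIR302A was itself among the most abundant miRNA of hiPSC-EV, and that of MIR302B was detected in hiPSC-EV alone.
miR-302a-5p: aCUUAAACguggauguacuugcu
miR-302b-5p: aCUUUAACauggaagugcuuuc
The seeds AAAGUGC and AUUGCAC join the miR-17-92 cluster at chr13:91350605-91351391 (plus strand, exon of MIR17HG), the miR-106a-363 cluster at chrX:134169378-134170278 (minus strand) and miRNA from introns of MCM7 at chr7:100093560-100094074 (minus strand). They are shown because members of 1 seed come from several loci.
miR-17-5p: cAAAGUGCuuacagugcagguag
miR-20b-5p: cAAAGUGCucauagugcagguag
miR-106a-5p: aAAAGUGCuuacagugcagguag
miR-93-5p: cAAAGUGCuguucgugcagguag
miR-92a-3p: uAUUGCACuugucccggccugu
miR-92b-3p: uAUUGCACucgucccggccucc
miR-363-3p: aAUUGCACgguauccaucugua
miR-367-3p: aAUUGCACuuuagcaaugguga
miR-25-3p: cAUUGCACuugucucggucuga
The seeds ACCCGUA and CCCUGAG mark the families that filled CMi-EV. Their hairpins lie together with let-7 hairpins (seed GAGGUAG) in introns of MIR100HG on chromosome 11, in SPACA6 at chr19:51692612-51693339 (plus strand) and at chr21:16539089-16539911 (plus strand).
miR-99a-5p: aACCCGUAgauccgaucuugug
miR-99b-5p: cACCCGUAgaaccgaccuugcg
miR-100-5p: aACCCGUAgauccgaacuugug
miR-125a-5p: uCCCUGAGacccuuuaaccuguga
miR-125b-5p: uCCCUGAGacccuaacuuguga
let-7a-5p: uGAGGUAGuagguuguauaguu
let-7c-5p: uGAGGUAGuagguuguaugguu
let-7e-5p: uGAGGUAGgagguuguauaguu
Muscle miRNA and other miRNA that marked 1 of the groups have seeds that differ from each other and from those above. Among the counted miRNA, miR-1-3p shares its seed with miR-206.
miR-1-3p: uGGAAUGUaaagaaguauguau
miR-133a-3p: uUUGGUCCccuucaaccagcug
miR-208a-3p: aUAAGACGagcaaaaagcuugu
miR-490-3p: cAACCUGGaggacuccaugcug
miR-143-3p: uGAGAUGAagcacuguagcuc
miR-10a-5p: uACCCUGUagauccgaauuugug
miR-512-3p: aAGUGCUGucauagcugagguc
miR-183-5p: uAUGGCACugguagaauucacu
miR-182-5p: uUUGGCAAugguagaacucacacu

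Counts on miRNA ranged from 703418 to 5598296 per library in hiPSC-EV and from 1364736 to 2163511 in CMi-EV, with the lowest depth in hiPSC-EV 1. Levels are given in CPM, the counts of a feature relative to all counts of its RNA class after TMM (trimmed mean of M-values) scaling. A count of 0 allows a level of up to 3 counts, or 0.583 to 3.48 CPM depending on the library, and this limit covers counting error only. Across miRNA, Pearson's r of log levels was between 0.860 and 0.973 for libraries of the same group and between 0.433 and 0.571 for libraries of different groups, over miRNA that are not independent replicates. Every pair of libraries within a group differed by more than counting error (ratio of chi-square to its degrees of freedom from 12.5 to 350 over 30 pairs and classes). All 6 were counted as separate samples, as their labels give them. Several markers bore out both labels. Fragments of the protein-coding features of POU5F1, NANOG and SOX2 were found in every hiPSC-EV library and in no CMi-EV library. TNNT2 and MYH6 fragments were found in every CMi-EV library. Other markers did not separate the groups in this way. The pluripotency genes LIN28A and SALL4 had 48, 10 and 2 and 27, 35 and 0 counts in CMi-EV. Of the cardiomyocyte genes, TNNI3 had counts in hiPSC-EV 2 alone and ATP2A2 in both groups. The natriuretic peptide gene NPPA, also used as a cardiomyocyte marker, was at 0 in all 6 libraries, as were MYL2 and CSRP3 of the same list.

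The miRNA cargo was largely exchanged between the stages. Among 338 tested miRNA, those that reached 5 CPM in all 3 libraries of either group, 140 (41.4%) were differentially expressed (DE), defined as an FDR of at most 0.05 (Benjamini-Hochberg adjusted p of edgeR's quasi-likelihood test) and at least a 2-fold change. Of the tested miRNA, 53 (15.7%) were higher in CMi-EV and 87 (25.7%) were lower. The 3 libraries of one group all lay above the 3 of the other for 214 miRNA (63.3%). A miRNA that passed the filter through 1 group alone was under the minimum in at least 1 library of the other, so that the direction of its call was largely set by the filter. Of the 182 miRNA that passed in both groups, 27 rose and 45 fell, of the 113 that passed in hiPSC-EV alone 42 fell (37.2%), and of the 43 that passed in CMi-EV alone 26 rose (60.5%). The median log2 fold change over all tested miRNA was -0.55, and it was -0.39 when scaled by median of ratios and -0.68 when scaled by library size alone. Fold changes are CMi-EV over hiPSC-EV. Of the DE miRNA, 33 of those that fell had no count in any CMi-EV library and 5 of those that rose had none in hiPSC-EV. For these, a fold is given only as a bound against 3 counts per library. With such miRNA at their bound, the median log2 fold change was 4.97 for the miRNA that rose and -3.48 for those that fell.

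**Figure D1:**
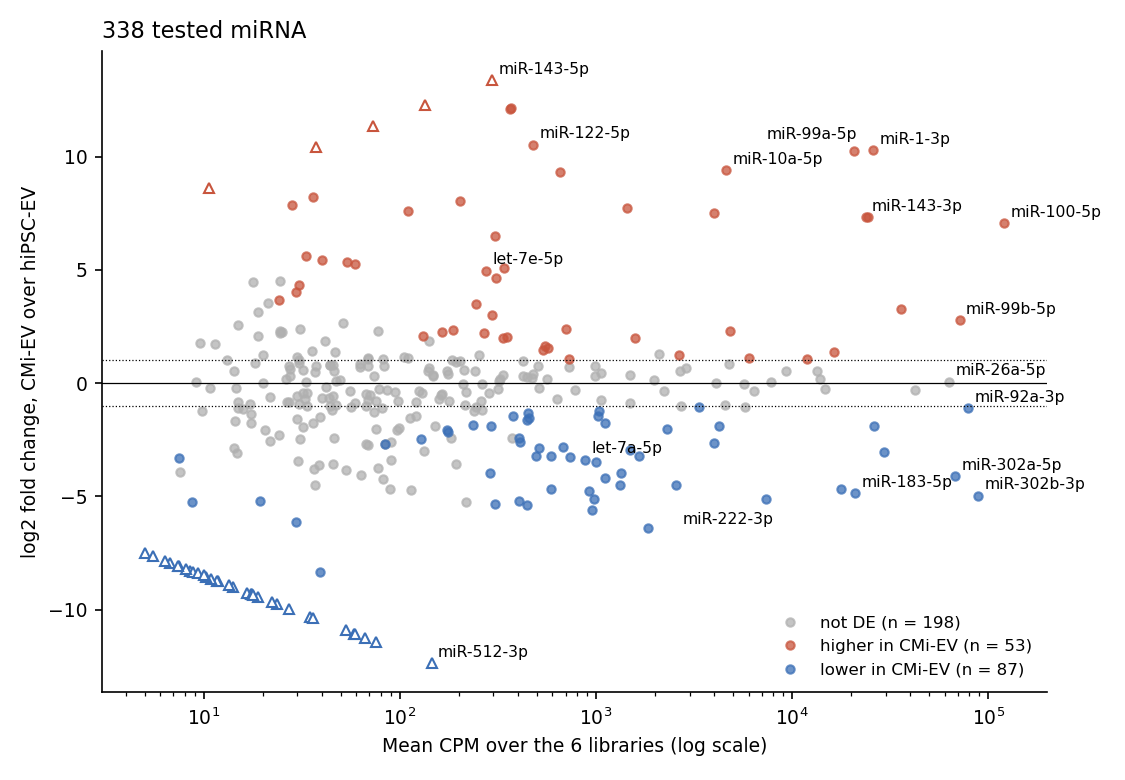
Log2 fold change of CMi-EV over hiPSC-EV (vertical) against the mean CPM over the 6 libraries (horizontal, log scale) for 338 tested miRNA, with DE miRNA in color, dotted lines at the 2-fold threshold, and open triangles for miRNA with no count in 1 group, whose fitted fold is no bound. Abundant miRNA are found on both sides, such as miR-100-5p at 7.07 and miR-302b-3p at -4.96.

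A few miRNA carried most of the counts at either stage. In hiPSC-EV, miR-302b-3p alone took 20.4%, 17.1% and 16.7% of the miRNA counts. In CMi-EV, miR-100-5p took 23.6%, 18.7% and 25.8%. Between 4 and 6 miRNA made up the majority of the counts in every library. The 53 miRNA that rose held 5.65% to 5.68% of the counts of hiPSC-EV and 65.2% to 70.3% of those of CMi-EV, and the 87 that fell went from 67.7% to 71.3% down to 7.79% to 11.1%. These shares follow from the calls and are given as a description. Of the 61 miRNA with a mean of at least 1000 CPM, 38 were DE, 16 higher and 22 lower in CMi-EV.

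MiRNA of pluripotent cells were the largest loss. The miR-302/miR-367 cluster, which sustains the rapid cell cycle of pluripotent cells, made up 33.9%, 31.4% and 31.8% of the miRNA counts of hiPSC-EV and 1.44%, 1.54% and 0.902% of those of CMi-EV. Of its 9 tested members, 8 fell and none rose (25.7% of all tested miRNA fell), and 3 of the 9 had passed the filter through hiPSC-EV alone, with a median log2 fold change of -4.73 beside -0.55 for all tested miRNA. MiR-302b-3p measured 166135, 167591 and 181701 CPM in hiPSC-EV and 5586, 6936 and 4057 in CMi-EV, a log2 fold change of -4.96 ± 0.23 (SE) with FDR = 2.19e-05. Every hiPSC-EV library was far above every CMi-EV library. Its partner arm miR-302b-5p measured 78.9, 151 and 125 CPM in hiPSC-EV and 0 in all 3 CMi-EV libraries, so that it was at least 62.9-fold lower in CMi-EV. MiR-302a-5p, the second miRNA of hiPSC-EV by mean level, measured 101616, 130649.8 and 151953 CPM in hiPSC-EV and 9283, 7565 and 5365 in CMi-EV, a log2 fold change of -4.11 ± 0.27 (SE) with FDR = 4.53e-05. MiR-302a-3p (log2 fold change -3.26 ± 0.33 SE, FDR = 0.000435), miR-302c-3p (log2 fold change -4.49 ± 0.40 SE, FDR = 0.000306), miR-302c-5p (log2 fold change -4.78 ± 0.37 SE, FDR = 0.000131) and miR-302d-3p (log2 fold change -3.20 ± 0.63 SE, FDR = 0.00702) fell as well. The ninth member, miR-367-3p, did not pass the threshold.

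**Figure D2:**
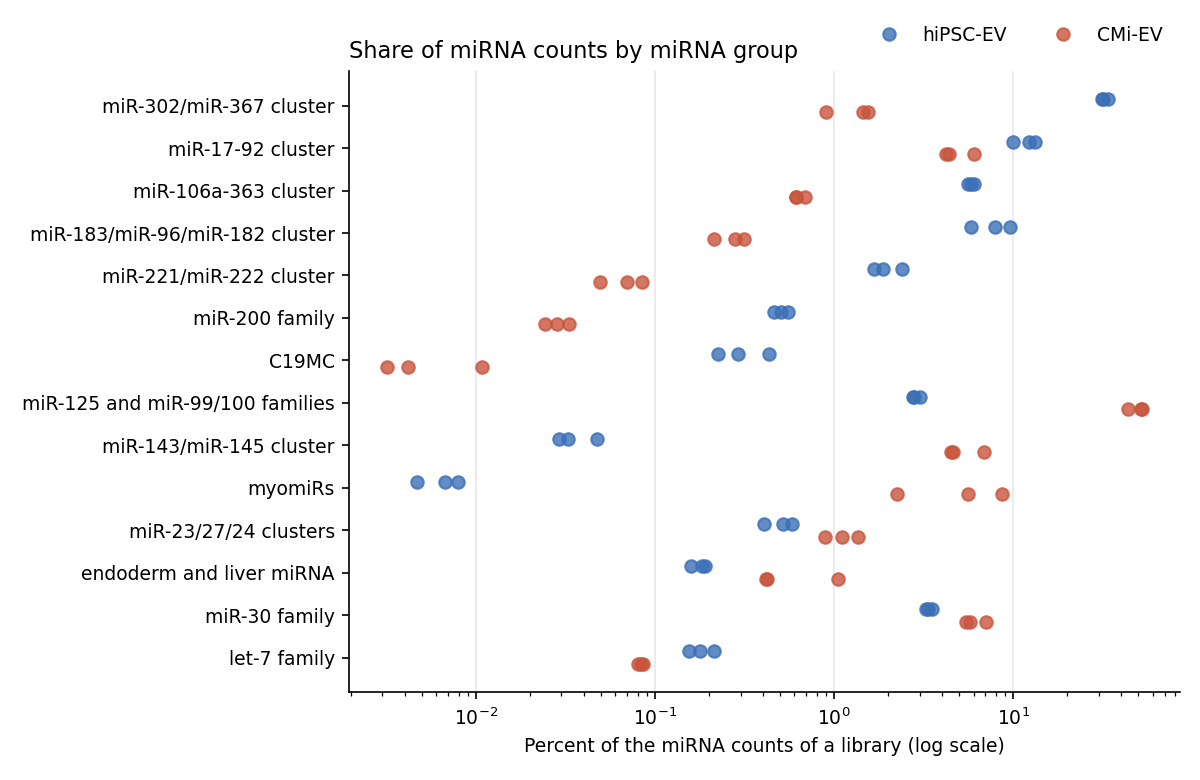
Share of the miRNA counts of each library (horizontal, log scale) held by 14 groups of miRNA, with 1 point per library in hiPSC-EV (blue) and CMi-EV (red). The miR-302/miR-367 cluster sits at 31.4% to 33.9% in hiPSC-EV against 0.902% to 1.54% in CMi-EV, and the miR-125 and miR-99/100 families at 2.74% to 3.01% against 43.97% to 52.4%. MiR-92a-3p, miR-92a-2-5p and miR-19b-3p are counted with the miR-17-92 cluster.

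The miR-17-92 cluster on chromosome 13, known for driving proliferation, and its paralog on the X chromosome, the miR-106a-363 cluster, have mature miRNA in common. MiR-92a-3p and miR-19b-3p are made from both loci, and reads cannot be assigned to 1 of them. Together they held 12.9%, 11.8% and 9.40% of the miRNA counts of hiPSC-EV and 4.31%, 5.98% and 4.14% of those of CMi-EV. MiR-92a-3p, by far the more abundant, measured 105117, 115130.0 and 102042 CPM in hiPSC-EV and 46193, 58451 and 45261 in CMi-EV, a log2 fold change of -1.10 ± 0.19 (SE) with FDR = 0.00347, which is near the 2-fold limit. Scaled by median of ratios or fitted with DESeq2, the same miRNA was no longer 2-fold lower. MiR-19b-3p overlapped between the groups, at 67.3, 118 and 235 CPM in hiPSC-EV and 145, 111 and 72.97 in CMi-EV (log2 fold change -0.36 ± 0.65 SE, FDR = 0.673). The miRNA made from the miR-17-92 locus alone held 0.374%, 0.381% and 0.562% of the miRNA counts of hiPSC-EV and 0.0630%, 0.0667% and 0.0472% of those of CMi-EV. Of the 7 tested, 3 fell, next to 25.7% of all tested miRNA, and 4 of the 7 had passed the filter through hiPSC-EV alone. MiR-20a-5p measured 1939.7, 2494 and 4522 CPM in hiPSC-EV and 326, 446 and 184 in CMi-EV, a log2 fold change of -3.23 ± 0.43 (SE) with FDR = 0.00162. MiR-17-5p fell too (log2 fold change -2.87 ± 0.52 SE, FDR = 0.00488), and miR-18a-5p, with no count in CMi-EV, was at least 80.6-fold lower.

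Of the 9 tested miRNA made from the miR-106a-363 locus alone, 6 fell, and 7 of the 9 had passed the filter through hiPSC-EV alone. Of all tested miRNA 25.7% fell, and of those that passed through hiPSC-EV alone 37.2% did. The share of miRNA made from this locus alone went from 5.84%, 5.59% and 6.02% to 0.611%, 0.689% and 0.615%. MiR-363-3p measured 44929, 51980.3 and 60815 CPM in hiPSC-EV and 6405, 6551 and 6526 in CMi-EV, a log2 fold change of -3.02 ± 0.19 (SE) with FDR = 2.98e-05. The groups were far apart and the CMi-EV libraries close together. MiR-106a-5p (log2 fold change -4.19 ± 0.43 SE, FDR = 0.000527) and miR-20b-5p (log2 fold change -5.37 ± 0.94 SE, FDR = 0.00637) fell further than miR-17-5p and miR-20a-5p did in the paralogous cluster, a difference between members that was not tested. Of the miR-106b-25 cluster, 3 of 6 tested members fell, next to the 25.7% of all tested, among them miR-25-3p (log2 fold change -2.04 ± 0.27 SE, FDR = 0.00122) and miR-93-5p (log2 fold change -2.44 ± 0.58 SE, FDR = 0.0137). The third, miR-106b-3p (log2 fold change -1.47), lost its call without hiPSC-EV 2 (FDR = 0.0626) or hiPSC-EV 3 (FDR = 0.0580). MiR-92b-3p, which shares its seed with miR-92a-3p but comes from chromosome 1, measured 40004, 47048 and 36379 CPM in hiPSC-EV and 9559, 13991 and 9938 in CMi-EV, a log2 fold change of -1.88 ± 0.22 (SE) with FDR = 0.000700.

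Several other clusters that mark pluripotent or epithelial cells fell. C19MC is a primate-specific cluster on chromosome 19, known from placenta and pluripotent cells. Of its 47 miRNA with any count, 44 had none in CMi-EV, and many of them had none in hiPSC-EV 1 either. Over all miRNA, 352, 653 and 879 were detected in the hiPSC-EV libraries and 346, 382 and 352 in those of CMi-EV. This absence was not corrected for depth. Of the 10 C19MC members tested, 9 passed through hiPSC-EV alone and 8 fell. Of all tested miRNA 25.7% fell, and of those that passed through hiPSC-EV alone 37.2% did. MiR-512-3p measured 288, 274 and 311 CPM in hiPSC-EV and 0 in all 3 CMi-EV libraries, at least 155-fold lower in CMi-EV. MiR-1323 measured 2369, 1808 and 1403 CPM in hiPSC-EV and 34.3, 34.3 and 45.7 in CMi-EV, a log2 fold change of -5.61 ± 0.29 (SE) with FDR = 2.41e-05. No library of one group reached the range of the other for either miRNA. Without hiPSC-EV 1, 18 C19MC members were tested and 16 fell, while 176 miRNA in all were DE there, against 140 with no library left out. Of the miR-371 to miR-373 cluster, also known from embryonic stem cells, miR-371a-5p fell (log2 fold change -3.24 ± 0.37 SE, FDR = 0.000705), while miR-372-3p (log2 fold change -4.68, FDR = 0.0740) was called only without CMi-EV 2 among the libraries left out (FDR = 0.00138).

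The miR-183/miR-96/miR-182 cluster of epithelial and sensory cells held 5.77%, 7.87% and 9.61% of the miRNA counts of hiPSC-EV and 0.312%, 0.279% and 0.214% of those of CMi-EV. Of its 5 tested members 4 fell, next to 25.7% of all tested miRNA, and 2 of the 5 had passed through hiPSC-EV alone. MiR-183-5p measured 23469.6, 39467 and 58628 CPM in hiPSC-EV and 1660.3, 1387 and 1139 in CMi-EV, a log2 fold change of -4.86 ± 0.34 (SE) with FDR = 9.14e-05. MiR-182-5p measured 22593, 35866 and 43875 CPM in hiPSC-EV and 1644, 1284 and 1142 in CMi-EV, a log2 fold change of -4.65 ± 0.29 (SE) with FDR = 4.19e-05. Both were lowest in hiPSC-EV 1 and highest in hiPSC-EV 3, and the groups did not overlap. The miR-200 family represses the factors ZEB1 and ZEB2 and so maintains the epithelial state. Of its 5 tested members 3 fell, beside 25.7% of all tested miRNA, and 3 of the 5 had passed through hiPSC-EV alone, with miR-200c-3p (log2 fold change -5.10 ± 0.28 SE, FDR = 2.41e-05) and miR-200b-3p (log2 fold change -3.98 ± 0.27 SE, FDR = 5.26e-05) the most abundant. The pair miR-221 and miR-222, which target the cell cycle inhibitor CDKN1B, fell from 2.41%, 1.88% and 1.68% of the miRNA counts to 0.0493%, 0.0844% and 0.0700%. MiR-222-3p measured 15590.3, 14562 and 12561 CPM in hiPSC-EV and 271, 480.4 and 469.9 in CMi-EV, a log2 fold change of -5.13 ± 0.26 (SE) with FDR = 2.19e-05, and the CMi-EV libraries lay well below all of hiPSC-EV. MiR-221-3p (log2 fold change -4.48 ± 0.32 SE, FDR = 9.14e-05) and miR-221-5p (log2 fold change -3.48 ± 0.28 SE, FDR = 0.000127) moved with it.

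What took their place in CMi-EV was mainly the miR-125 and miR-99/100 families. These families held 3.01%, 2.74% and 2.78% of the miRNA counts of hiPSC-EV and 52.0%, 43.97% and 52.4% of those of CMi-EV. Of 9 tested members 7 rose and none fell, next to 15.7% of all tested miRNA that rose. Of the 9, 2 had passed the filter through CMi-EV alone. The 2 that did not pass the threshold were the minor arms miR-99b-3p and miR-125a-3p. MiR-100-5p measured 1756, 1536 and 2048 CPM in hiPSC-EV and 254066, 183066 and 282316 in CMi-EV, a log2 fold change of 7.07 ± 0.23 (SE) with FDR = 4.88e-06. MiR-99a-5p, which differs from it by few bases and may share reads with it, measured 29.002, 36.6 and 35.97 CPM in hiPSC-EV and 50444, 38178 and 35052 in CMi-EV, a log2 fold change of 10.24 ± 0.22 (SE) with FDR = 1.55e-06. Both were well separated, although the hiPSC-EV level of miR-100-5p was the higher by far. MiR-99b-5p was already abundant in hiPSC-EV and measured 16058, 17337 and 21335 CPM in hiPSC-EV and 153162, 100887 and 120543 in CMi-EV, a log2 fold change of 2.77 ± 0.23 (SE) with FDR = 0.000123. MiR-125a-5p measured 6270.2, 7467 and 6507 CPM in hiPSC-EV and 59746, 62940.5 and 73146 in CMi-EV, a log2 fold change of 3.27 ± 0.18 (SE) with FDR = 2.19e-05. MiR-125b-5p measured 309, 325 and 279 CPM in hiPSC-EV and 39899, 44797 and 61007 in CMi-EV, a log2 fold change of 7.32 ± 0.22 (SE) with FDR = 4.04e-06. In all 3 the CMi-EV libraries stood above all of hiPSC-EV.

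The let-7 family did not move as 1 group, although its hairpins neighbor those of miR-99, miR-100 and miR-125. In pluripotent cells LIN28A blocks the maturation of let-7. Of 7 tested members 2 rose and 2 fell, near the 15.7% and 25.7% of all tested miRNA, and 5 of the 7 had passed the filter through 1 group alone. The median log2 fold change was 0.02, and the summed share was low in both groups (0.155%, 0.179% and 0.214% against 0.0833%, 0.0854% and 0.0802%). Let-7a-5p measured 1090.5, 1595 and 2113 CPM in hiPSC-EV and 176, 178 and 108 in CMi-EV, a log2 fold change of -3.38 ± 0.35 (SE) with FDR = 0.000450. Let-7e-5p measured 0, 24.9 and 24.5 CPM in hiPSC-EV and 557, 405 and 647 in CMi-EV, a log2 fold change of 4.97 ± 0.98 (SE) with FDR = 0.00945. The direction was opposite for these members of 1 seed, with no overlap in either. Let-7c-5p rose as well (309-fold higher in CMi-EV with a 95% counting interval of 84.9 to 2561, FDR = 0.00291), while let-7f-5p overlapped between the groups (log2 fold change -0.79 ± 0.71 SE, FDR = 0.433). Let-7d-5p was the other member that fell, and without hiPSC-EV 2 only 1 of the family fell.

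**Figure D3:**
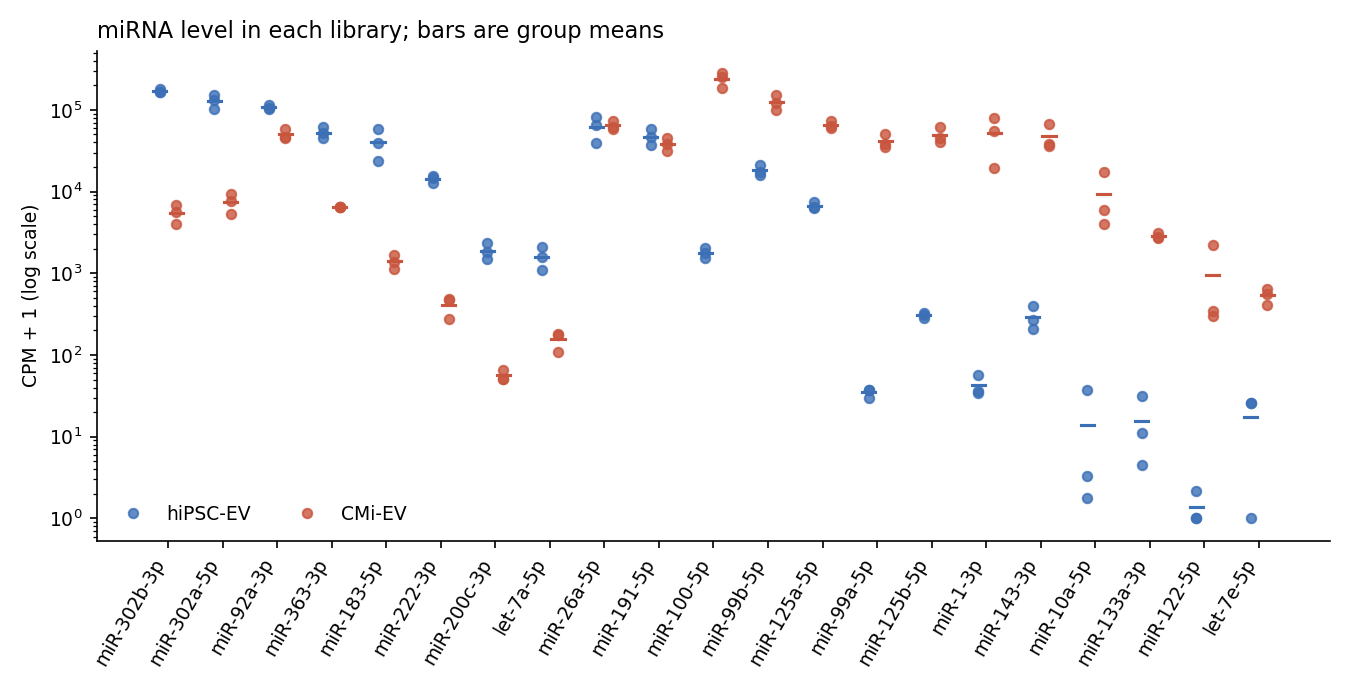
Level of 21 miRNA in each library (CPM + 1, log scale), in hiPSC-EV (blue) and CMi-EV (red), with bars at the group means. The libraries of the groups are apart for all but miR-26a-5p and miR-191-5p, and miR-1-3p, miR-10a-5p and miR-122-5p spread most among the CMi-EV libraries.

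MiRNA of muscle appeared in CMi-EV. The list of myomiRs held 0.00796%, 0.00466% and 0.00670% of the miRNA counts in hiPSC-EV and 5.60%, 8.65% and 2.23% in CMi-EV, and all 8 tested members rose. Of these 8, 7 had passed the filter through CMi-EV alone, where 60.5% of all miRNA so passed rose, against 15.7% of all tested miRNA. The list included miR-490 but not miR-486, which the authors count among myomiRs. MiR-486-5p fell and is described below with blood miRNA. Among listed members that were not tested, miR-206 had 0, 0 and 46 counts in hiPSC-EV and 23, 46 and 3 in CMi-EV. MiR-499a-5p had 0, 0 and 10 against 0, 26 and 129. MiR-208b-3p was found in CMi-EV 3 alone, with 51 counts. MiR-1-3p, the most abundant miRNA of heart muscle, measured 34.8, 33.1 and 56.4 CPM in hiPSC-EV and 55856, 79731 and 19196 in CMi-EV, a log2 fold change of 10.27 ± 0.50 (SE) with FDR = 4.19e-05. MiR-133a-3p, transcribed with it, measured 30.2, 10.1 and 3.50 CPM in hiPSC-EV and 2735, 3132 and 2749.6 in CMi-EV, a log2 fold change of 7.75 ± 0.65 (SE) with FDR = 0.000435. CMi-EV 3 was the lowest of its group for miR-1-3p but not for miR-133a-3p, and no hiPSC-EV library came near. MiR-208a-3p comes from an intron of MYH6, the gene of the alpha myosin heavy chain (chr14:23388596-23388666, minus strand), and measured 0, 0 and 0.194 CPM in hiPSC-EV and 591, 728 and 876 in CMi-EV. From 1 count in hiPSC-EV, it was 6087-fold higher in CMi-EV with a 95% counting interval of 1092 to 240484, FDR = 2.19e-05. Its other arm miR-208a-5p, at 0 in hiPSC-EV, was higher in CMi-EV by at least 155-fold. MiR-490-3p, from an intron of the muscarinic receptor gene CHRM2 (chr7:136903167-136903294, plus strand), measured 0, 0 and 0.194 CPM in hiPSC-EV and 658, 678 and 872 in CMi-EV, 6161-fold higher in CMi-EV with a 95% counting interval of 1105 to 243407, FDR = 2.19e-05. Neither miR-208a-3p nor miR-490-3p exceeded 1 count in any hiPSC-EV library.

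The miR-143/miR-145 cluster, found in smooth muscle and in the early heart, lies in the noncoding gene CARMN at chr5:149428918-149430733 (plus strand). Its share rose from 0.0290%, 0.0326% and 0.0473% to 4.48%, 4.62% and 6.89%, and all 4 tested members rose, 3 of which had passed the filter through CMi-EV alone. Of all miRNA that passed through CMi-EV alone 60.5% rose, and of all tested miRNA 15.7%. MiR-143-3p measured 205, 268 and 399 CPM in hiPSC-EV and 38689, 36363 and 66587 in CMi-EV, a log2 fold change of 7.34 ± 0.34 (SE) with FDR = 2.19e-05. MiR-143-5p, likewise at 0 in hiPSC-EV, was at least 338-fold higher. MiR-145-3p (log2 fold change 7.49 ± 0.97 SE, FDR = 0.00319) and miR-145-5p (log2 fold change 4.64 ± 0.70 SE, FDR = 0.00347) rose too. Fragments of smooth muscle and fibroblast transcripts held 0.0254%, 0.00262% and 0.00561% of the gencode counts in hiPSC-EV and 0.0188%, 0.0374% and 0% in CMi-EV. Their part in the miR-143/miR-145 result was not tested.

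Families with smaller increases came next. Of the miR-30 family, with 5.46%, 7.00% and 5.72% of the miRNA counts of CMi-EV against 3.32%, 3.51% and 3.24%, 3 of 8 tested members rose (15.7% of all tested miRNA did) and all 8 had a positive fold change under each scaling. MiR-30d-5p measured 7508, 9902 and 10092 CPM in hiPSC-EV and 23314, 24989 and 22231 in CMi-EV, a log2 fold change of 1.36 ± 0.19 (SE) with FDR = 0.00161. Without CMi-EV 2 its log2 fold change was 0.97 and no member of the family was called, and without CMi-EV 1 or CMi-EV 3, 1 was. Members of the miR-23/27/24 clusters had positive fold changes in all 6 tested and 5 rose, next to 15.7% of all tested, among them miR-24-3p (log2 fold change 2.38 ± 0.26 SE, FDR = 0.000527) and miR-27a-3p (log2 fold change 1.65 ± 0.31 SE, FDR = 0.00482). That count was 2 without CMi-EV 1, CMi-EV 2, hiPSC-EV 1 or hiPSC-EV 2, and 3 without CMi-EV 3. In the miR-181 family, miR-181a-2-3p measured 23.2, 23.3 and 11.5 CPM in hiPSC-EV and 441, 404 and 1128 in CMi-EV, a log2 fold change of 5.10 ± 0.54 (SE) with FDR = 0.000729. The other 2 members that rose, miR-181a-5p and miR-181b-5p, were lost without CMi-EV 3 (FDR = 0.119 and 0.112) and without hiPSC-EV 2 (FDR = 0.0714 and 0.0778), the former also without CMi-EV 2 (FDR = 0.0539) and the latter also without hiPSC-EV 1 (FDR = 0.0600).

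MiR-10a-5p lies in an intron of HOXB3 within the HOXB locus, which patterns the body axis. It measured 2.32, 36.2 and 0.778 CPM in hiPSC-EV and 6018, 4045 and 17577 in CMi-EV, a log2 fold change of 9.40 ± 1.18 (SE) with FDR = 0.00347. The spread was wide in both groups, with CMi-EV 3 highest, and no overlap. MiR-10b-5p of the HOXD locus overlapped between the groups (log2 fold change -0.44 ± 0.84 SE, FDR = 0.692). MiRNA of endoderm and liver, fixed as a list of another cell type, rose in 4 of 5 tested members (15.7% of all tested miRNA rose), 2 of the 5 having passed through CMi-EV alone, and held 0.160%, 0.183% and 0.189% of the miRNA counts in hiPSC-EV and 0.424%, 0.415% and 1.05% in CMi-EV. MiR-122-5p, the main liver miRNA, measured 0, 0 and 1.17 CPM in hiPSC-EV and 342, 298 and 2227 in CMi-EV, a log2 fold change of 10.52 ± 1.33 (SE) with FDR = 0.00127. MiR-483-5p, from an intron of IGF2, measured 0, 0 and 4.47 CPM in hiPSC-EV and 307, 158 and 3469 in CMi-EV, a log2 fold change of 9.32 ± 1.54 (SE) with FDR = 0.00564. CMi-EV 3 was by far the highest library for both, so that the size of these fold changes depends on it. Of the 10 genes of the endoderm and liver transcript list, 3 had any count. The protein-coding features of APOB and SERPINA1 had 33 and 14 counts in that library and none in CMi-EV 1 and CMi-EV 2, with 1 count of APOB in hiPSC-EV 2, while AFP had 1, 0 and 2 counts in hiPSC-EV and none in CMi-EV. Their part in the result was not tested. MiR-122-5p and miR-483-5p kept their calls without any 1 library. MiR-375-3p of pancreatic islets rose as well (log2 fold change 3.02 ± 0.60 SE, FDR = 0.00707). MiR-192-5p (log2 fold change 1.24, FDR = 0.0145) did not keep its call without CMi-EV 1 (log2 fold change 1.00), CMi-EV 3 (FDR = 0.0673) or hiPSC-EV 2 (FDR = 0.0593).

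Abundant miRNA were not all exchanged. MiR-26a-5p measured 39017, 64931 and 81458 CPM in hiPSC-EV and 62084, 58737 and 72731 in CMi-EV, a log2 fold change of 0.06 ± 0.29 (SE) with FDR = 0.877. MiR-191-5p measured 36682, 46868 and 57609 CPM in hiPSC-EV and 44635, 38098 and 31090.3 in CMi-EV, a log2 fold change of -0.31 ± 0.24 (SE) with FDR = 0.353. Their groups overlapped, and the same was true of miR-148a-3p, miR-423-5p and miR-21-5p, with log2 fold changes of -0.26, 0.55 and -0.34. At the thresholds, miR-218-5p (FDR = 0.0482) and miR-30c-5p (log2 fold change 1.05) were just inside, and miR-425-3p (FDR = 0.0504) and miR-378a-3p (log2 fold change -0.997) were just outside. Without CMi-EV 2 (FDR = 0.0292) or hiPSC-EV 1 (FDR = 0.0163) miR-425-3p was called, and without each CMi-EV library so was miR-378a-3p (log2 fold changes from -1.65 to -1.17). The call of miR-218-5p was lost without any 1 of the 6 libraries, with FDR between 0.0523 and 0.165. That of miR-30c-5p was lost without each of the CMi-EV libraries in turn, with log2 fold changes between 0.55 and 0.85.

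Lists of other cell types and smaller families are given by their counts, to be read beside the 15.7% of all tested miRNA that rose and the 25.7% that fell. The imprinted DLK1-DIO3 cluster, which is silenced in some hiPSC lines, was listed with 49 members. From these, 13 mature miRNA had any count, with both arms of miR-409 among them, and none was tested. Of the erythroid miRNA, miR-486-5p was higher in hiPSC-EV (5303, 6955 and 7876 CPM in hiPSC-EV and 2312, 2303 and 806 in CMi-EV, a log2 fold change of -1.89 ± 0.41 (SE) with FDR = 0.00834), and 3 of 4 tested blood miRNA fell without hiPSC-EV 1 and 2 of 2 without CMi-EV 2. No count fell on an erythroid transcript of the list in any library. The miR-15/16 family had 1 of 5 tested members called, miR-15b-5p (log2 fold change -1.55), which was lost without hiPSC-EV 2 (FDR = 0.0555) or hiPSC-EV 3 (FDR = 0.0858). Of 8 tested endothelial miRNA, 3 fell, all of them of the miR-221/miR-222 pair, and the 1 that rose was miR-10a-5p. Of 6 tested neural miRNA, 1 rose and 2 fell, shares near those of all tested, and none rose once any 1 library was left out. Of the 4 tested miRNA of the miR-378 and miR-26 list, miR-26b-5p rose (log2 fold change 2.03 ± 0.40 SE, FDR = 0.00557).

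Counts were also added up by seed, which describes the pool of guides irrespective of the locus of origin. Of 247 tested seeds, 89 (36.0%) were DE. The seed ACCCGUA of the miR-99/100 family measured 19419, 20292 and 28439 CPM in hiPSC-EV and 443511, 321540.4 and 446201 in CMi-EV, a log2 fold change of 4.15 ± 0.28 (SE) with FDR = 6.22e-05. CCCUGAG of the miR-125 family measured 7159.9, 8361 and 8241 CPM in hiPSC-EV and 96562, 107540.4 and 136692 in CMi-EV, a log2 fold change of 3.84 ± 0.23 (SE) with FDR = 3.73e-05. Together these seeds took the largest part of the miRNA counts of CMi-EV and a small part of those of hiPSC-EV. GGAAUGU of miR-1 (log2 fold change 9.95 ± 0.54 SE, FDR = 6.47e-05) and GAGAUGA of miR-143-3p (log2 fold change 7.15 ± 0.38 SE, FDR = 3.94e-05) rose further in fold. Of the seeds that fell, AAGUGCU of miR-302, miR-372 and C19MC members measured 186896, 186856 and 232738 CPM in hiPSC-EV and 5940.2, 7406 and 4512 in CMi-EV, a log2 fold change of -5.09 ± 0.27 (SE) with FDR = 3.09e-05. AUUGCAC of the miR-92, miR-25, miR-363 and miR-367 family measured 210340.4, 233532 and 248182 CPM in hiPSC-EV and 61226, 79627 and 63833 in CMi-EV, a log2 fold change of -1.76 ± 0.23 (SE) with FDR = 0.00115. The latter remained among the abundant seeds of CMi-EV, through miR-92a-3p and miR-92b-3p. CUUAAAC of miR-302a-5p (log2 fold change -4.31 ± 0.30 SE, FDR = 6.47e-05) and AUGGCAC of miR-183-5p (log2 fold change -5.07 ± 0.38 SE, FDR = 0.000132) fell with the clusters described before. These 8 seeds kept their call in every alternative run for seeds. Of 30 seeds with at least 2 tested miRNA, 17 had at least 2 DE miRNA, and in 16 of these all DE miRNA went in 1 direction. The exception was GAGGUAG of let-7.

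Fold changes were next set against the genomic position of the hairpins. Hairpins at most 10 kb apart on 1 strand formed 36 clusters with at least 2 hairpins that give a tested miRNA, and 29 had a DE member. Membership was incomplete. MIR183, MIR93 and MIR20B lie within this distance of a cluster but were not assigned to it. MiR-106a-3p, with 26, 44 and 137 counts in hiPSC-EV and 125, 37 and 0 in CMi-EV, was not assigned either. The counts of clusters given here hold for the assigned miRNA alone. In 31 of the 36 all assigned tested miRNA had fold changes of 1 sign, and in 5 the signs were mixed. Clusters with only 1 tested miRNA, such as MIR516A1 with MIR516A2, are among the 31 by necessity. Of the 18 with at least 2 DE members, 17 had DE members in 1 direction. The exception was MIRLET7A2 with MIR100 on chromosome 11, where let-7a-5p fell and miR-100-5p rose, but let-7a-5p is also made from hairpins on chromosomes 9 and 22 and reads cannot be assigned to 1 of the copies. MiR-19b-3p, miR-24-3p and miR-92a-3p likewise come from 2 clusters each. Among the 17 clusters with at least 3 tested miRNA, 6 had at least 2 members that rose and 8 had at least 2 that fell, 2 had 1 call and 1 had none. Members of a cluster share a primary transcript and are not independent.

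**Figure D4:**
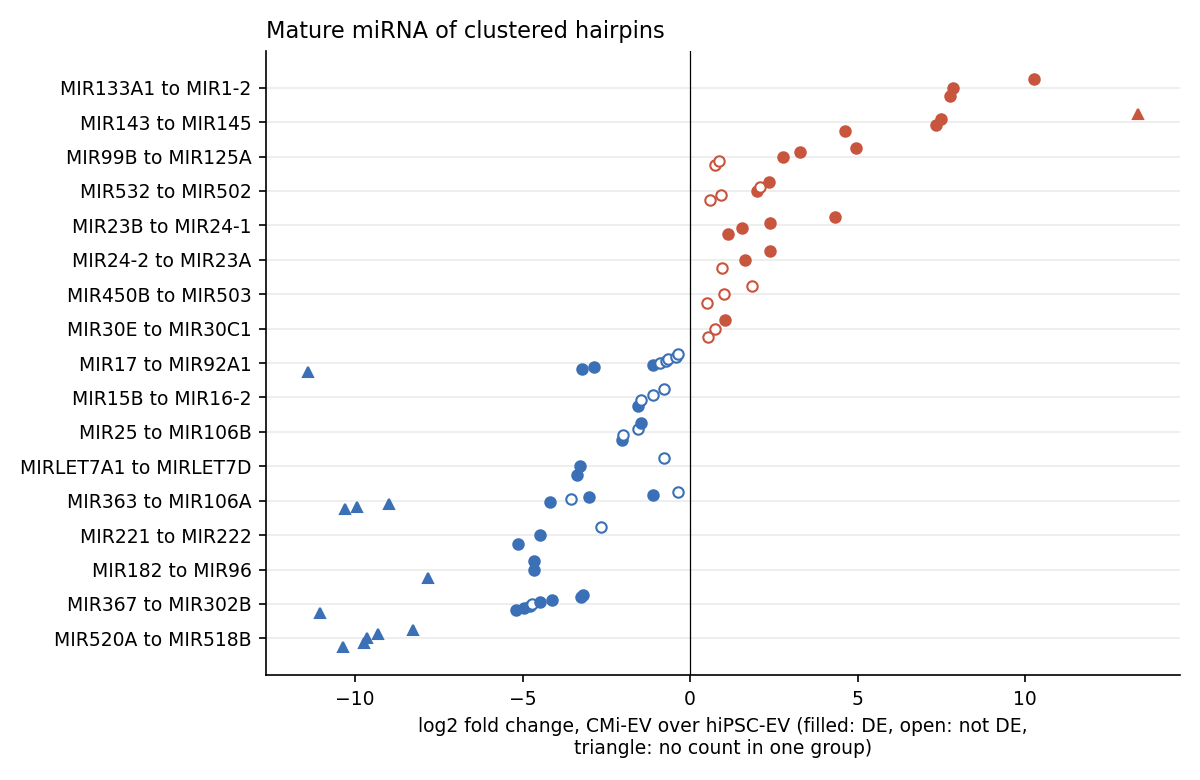
Log2 fold change of CMi-EV over hiPSC-EV (horizontal) for each tested mature miRNA assigned to 17 clusters with at least 3 of them (vertical, named by the first and last hairpin), filled where DE, with triangles where 1 group had no count and the fitted fold is no bound. In each of these clusters all members lie on the same side of 0, and in the cluster from MIR17 to MIR92A1 they run from -0.36 to -3.23 beside the triangle of miR-18a-5p.

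For some hairpins the balance of the arms differed between the stages. The log2 ratio of 5p to 3p counts was tested with limma for 25 hairpins with at least 5 counts on both arms in all 6 libraries, and 8 (32.0%) differed at an FDR of at most 0.05. For miR-335, from an intron of MEST, the log2 ratio was -5.61, -4.61 and -4.12 in hiPSC-EV and -1.81, -2.34 and -2.004 in CMi-EV (difference 2.73 ± 0.47 SE, FDR = 0.00465). The ratio was higher in every CMi-EV library than in any of hiPSC-EV. For miR-125a it was 8.36, 8.63 and 7.89 in hiPSC-EV and 10.36, 10.26 and 11.64 in CMi-EV (difference 2.46 ± 0.48 SE, FDR = 0.00586), again higher in all of CMi-EV. For miR-340 it was 1.21, 1.08 and 1.18 in hiPSC-EV and -0.46, -0.85 and -0.67 in CMi-EV (difference -1.82 ± 0.37 SE, FDR = 0.00586), lower in all of CMi-EV. The fourth by p-value, miR-342 (difference 1.97, FDR = 0.0117), was not called without CMi-EV 1 or CMi-EV 2. Without either of these libraries 4 hairpins were called, and with at least 20 counts on both arms, 4 of 23. That stricter run did not hold miR-125a, with 16 counts on its 3p arm in hiPSC-EV 1. Nor did it hold miR-342, with 10 counts on its 5p arm in the same library. Arms of a hairpin are ligated and amplified with different efficiency, so that a ratio does not give the proportion of the arms in the EV and its difference between groups is compared.

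Short sequence motifs were counted in the mature miRNA of known sequence, with no test. The letters GGAG, known from studies of miRNA sorting into EV, were present in 7 of 49 miRNA that rose (14.3%), 3 of 77 that fell (3.90%) and 30 of 295 tested (10.2%). CCCU was present in 16.3%, 6.49% and 10.2% in the same order. GGCU was present in 12.2%, 14.3% and 13.6%. Each motif was searched on the mature strand alone, as a mature miRNA is single-stranded, and members of a family share these letters. Median GC content was 50% in miRNA that rose, 45.5% in those that fell and 50% in all tested.

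Fragments of messenger and long noncoding RNA, called gencode transcripts, were tested in the same way. Counts on this class were 307432 to 1908539 in hiPSC-EV and 219118 to 499729 in CMi-EV. Of 1891 features (a gene and a transcript type) that reached 5 counts in all 3 libraries of either group, 659 (34.8%) were DE, 64 (3.38%) higher and 595 (31.5%) lower in CMi-EV. Depth and the filter moved with this asymmetry: 1411 features passed through hiPSC-EV alone, of which 577 fell, and 191 through CMi-EV alone, of which 54 rose, while of the 289 that passed in both groups 10 rose and 18 fell. After thinning all libraries to equal depth, 228 of 817 were DE, 70 higher and 158 lower. Without hiPSC-EV 1, the shallowest of its group, 2158 were DE. When restricted to features with at least 5 counts in each of the 6 libraries, 13 rose and 13 fell.

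Fragments of transcripts of pluripotent cells fell and those of contractile cells rose. Of 12 tested features of the pluripotent list, 10 fell and none rose. All 12 had passed through hiPSC-EV alone, where 40.9% of all features so passed fell. POU5F1, which encodes OCT4, had 101, 145 and 151 counts in hiPSC-EV and none in CMi-EV, so that it was at least 28.3-fold lower in CMi-EV. ESRG, a noncoding RNA of pluripotent cells, had 552, 1197 and 645 counts in hiPSC-EV and 0, 9 and 0 in CMi-EV (log2 fold change -7.49 ± 1.29 SE, FDR = 0.0139). Neither POU5F1 nor ESRG exceeded 9 counts in any CMi-EV library. SALL4, by contrast, had 16, 47 and 83 counts in hiPSC-EV and 27, 35 and 0 in CMi-EV and did not pass the threshold. DNMT3B, a de novo DNA methyltransferase, had 16, 139 and 212 counts in hiPSC-EV and none in CMi-EV and was at least 20.6-fold lower. LIN28A had 69, 131 and 324 counts in hiPSC-EV and 48, 10 and 2 in CMi-EV and did not pass (FDR = 0.0743), except without CMi-EV 1 (FDR = 0.0212). Without hiPSC-EV 1, 23 features of the list were tested and 20 fell, next to 2085 of all 4631 gencode features tested in that run.

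Of 18 tested features of the cardiomyocyte list, 16 rose and none fell, and 16 of the 18 had passed through CMi-EV alone, where 28.3% of all features so passed rose. TTN, the giant sarcomere protein titin, had 27, 58 and 18 counts in hiPSC-EV and 4227, 4436 and 2373 in CMi-EV (log2 fold change 7.19 ± 0.64 SE, FDR = 0.00980). MYH6, the alpha myosin heavy chain, had 0, 0 and 1 counts in hiPSC-EV and 821, 1095 and 368 in CMi-EV (3527-fold higher in CMi-EV with a 95% counting interval of 632 to 139367, FDR = 0.00854). TNNT2, cardiac troponin T, had 0, 0 and 1 counts in hiPSC-EV and 106, 143 and 108 in CMi-EV (551-fold higher in CMi-EV with a 95% counting interval of 98.3 to 21834, FDR = 0.0139). Each was near 0 or low in all of hiPSC-EV and high in all of CMi-EV. TNNI1, the troponin I of fetal heart and slow muscle, and MYL4, the atrial light chain of the embryonic heart, were at 0 in hiPSC-EV and at least 52.5-fold and 50.5-fold higher in CMi-EV. MYOCD, a coactivator of muscle genes, was at least 54.1-fold higher. The calcium channel gene RYR2 (log2 fold change 4.83, FDR = 0.0678) and the calcium pump gene ATP2A2 (log2 fold change -0.55, FDR = 0.772) did not pass. PLN and NPPB were found in CMi-EV 3 alone, with 52 and 25 counts. After thinning to equal depth, 14 of 15 cardiomyocyte features rose and 6 of 8 pluripotent features fell. Of all 817 features tested in that run, 70 rose and 158 fell.

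**Figure D5:**
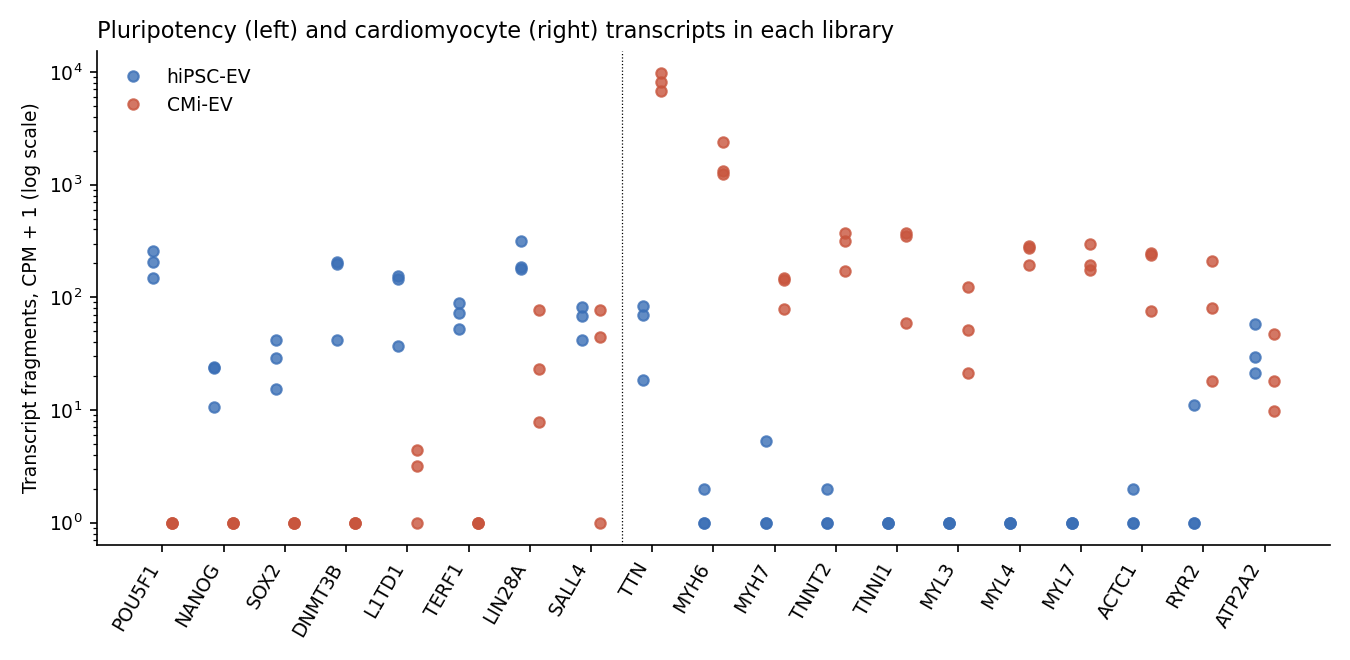
Fragments of 8 pluripotency and 11 cardiomyocyte protein-coding transcripts in each library (CPM + 1, log scale), hiPSC-EV in blue and CMi-EV in red, points at 1 having no count. POU5F1, NANOG, SOX2, DNMT3B and TERF1 have no count in any CMi-EV library, and TTN is the highest of the cardiomyocyte transcripts.

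Among other gencode features, ANLN, needed for cytokinesis, had 310, 395 and 224 counts in hiPSC-EV and none in CMi-EV and was at least 72.8-fold lower in CMi-EV, the largest such bound. The chromatin protein gene HMGA1 had 192, 253 and 344 counts in hiPSC-EV and none in CMi-EV, at least 54.9-fold lower. TNFRSF10D and IQGAP2 were at least 57.4-fold and 47.9-fold lower. These 4 genes had counts in all of hiPSC-EV and in none of CMi-EV. DIRC2, which rose, had 2, 4 and 13 counts in hiPSC-EV and 684, 816 and 870 in CMi-EV (log2 fold change 7.88 ± 0.68 SE, FDR = 0.00980). Of the abundant noncoding RNA, the Y RNA gene RNY1 (log2 fold change -1.56, FDR = 0.0302) was lower in CMi-EV but lost its call without CMi-EV 1 (FDR = 0.191), CMi-EV 3 (FDR = 0.173) or hiPSC-EV 2 (FDR = 0.0601). The vault RNA feature VTRNA1 (log2 fold change -2.20) lost it without CMi-EV 1 (FDR = 0.0876) or CMi-EV 3 (FDR = 0.0560). SNORD3B, a copy of the U3 small nucleolar RNA that shares reads with SNORD3A, was higher in CMi-EV (log2 fold change 2.17), but not called without CMi-EV 1 (FDR = 0.0773) or hiPSC-EV 2 (FDR = 0.0728).

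Transcripts of EV membrane and sorting proteins were sparse, and 3 of 6 tested features fell, those of CD9, FLOT2 and ANXA5. All 6 had passed the filter through hiPSC-EV alone, so that their share is near the background of 40.9%. Without CMi-EV 2, 5 of 6 tested fell, next to 792 of all 2041 gencode features in that run. Without hiPSC-EV 1 it was 5 of 9, next to 2085 of 4631. Without hiPSC-EV 2 it was 5 of 8, next to 920 of 2467. CD63 had 12, 21 and 32 counts in hiPSC-EV and 16, 40 and 0 in CMi-EV and did not pass (log2 fold change 0.31 ± 1.40 SE, FDR = 0.907). Both tested endothelial features were transcript types of 1 gene, the receptor gene KDR, and had passed through hiPSC-EV alone. They fell and had no count in CMi-EV. Endoderm and liver transcripts had 4 features with any count and none tested. The tested fibroblast feature, of COL1A2, and the tested neural feature, of NES, did not pass (FDR = 0.748 and 0.328). Without CMi-EV 1, which held 44 of the COL1A2 counts, COL1A2 was lower in CMi-EV (FDR = 0.0318).

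Of 316 tested tRNA features, 49 (15.5%) were DE, 23 higher and 26 lower in CMi-EV. The files name them by RNAcentral identifiers without the amino acid, and many are near-identical copies that share reads, so that the 49 had 44 distinct count profiles. The median log2 fold change over all tested tRNA was -0.0034. Scaled by library size alone, 36 were higher and 24 lower, and scaled by library totals 1 and 11. The most abundant feature that fell, URS000063FB43, had 19924, 73306 and 90067 counts in hiPSC-EV and 3613, 3745 and 1521 in CMi-EV (log2 fold change -3.75 ± 0.35 SE, FDR = 0.00227), and hiPSC-EV 2 and 3 stood above hiPSC-EV 1. It kept its call in every alternative run for tRNA. URS0000305D7E, which rose, had 773, 1545 and 1668 counts in hiPSC-EV and 3657, 3697 and 3037 in CMi-EV (log2 fold change 1.93 ± 0.24 SE, FDR = 0.00227) and kept its call in all but the scaling by library totals. The number of DE tRNA was 12 without hiPSC-EV 2, 19 without hiPSC-EV 3, 13 without CMi-EV 1, 24 without CMi-EV 2 and 86 without CMi-EV 3.

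PIWI-interacting RNA (piRNA), which act mainly in the germline, gave 29 tested features, of which 4 (13.8%) were DE. Of these, 3 fell, and the best covered, piR-54907, had 47, 141 and 229 counts in hiPSC-EV and 0, 0 and 2 in CMi-EV (121-fold lower in CMi-EV with a 95% counting interval of 33.3 to 1004, FDR = 0.00933). PiR-30112 had 28, 68 and 162 counts in hiPSC-EV and none in CMi-EV, at least 14.5-fold lower. PiR-60573 rose, with 0, 5 and 0 counts in hiPSC-EV and 52, 58 and 10 in CMi-EV, but lost its call without CMi-EV 1 (FDR = 0.0555), CMi-EV 2 (FDR = 0.0645) or hiPSC-EV 3 (FDR = 0.122). None of the 10 piRNA that passed in both groups was DE by edgeR, and a piRNA identifier can also collect fragments of other small RNA. The number of DE piRNA was 29 without hiPSC-EV 1, 7 without hiPSC-EV 2 or CMi-EV 3, and 2 without hiPSC-EV 3.

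Circular RNA, which arise by back-splicing and lack free ends, had only 11653 to 27324 counts per library. Of 189 tested features 32 (16.9%) were DE, 8 higher and 24 lower in CMi-EV, or 10 and 14 when scaled by library totals. As circular RNA identifiers that share an exon junction region share reads, the 32 had 22 distinct count profiles. A set of 4 identifiers with equal counts, hsa_circ_0132733 among them, had 51, 110 and 136 counts in hiPSC-EV and none in CMi-EV, at least 36.9-fold lower in CMi-EV. Hsa_circ_0008848 had 90, 269 and 460 counts in hiPSC-EV and 28, 32 and 8 in CMi-EV (log2 fold change -3.72 ± 0.72 SE, FDR = 0.0120). In both cases all of hiPSC-EV lay above all of CMi-EV. Hsa_circ_0110678 had no count in hiPSC-EV and 70, 75 and 19 counts in CMi-EV, at least 13.98-fold higher in CMi-EV. A back-splice junction was not observed directly in these counts, so that reads of the linear transcript cannot be set apart.

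Shares of the RNA classes were compared last. Of the counts on all 5 classes, miRNA made up 55.7%, 61.3% and 64.0% in hiPSC-EV and 70.7%, 62.4% and 74.5% in CMi-EV (60.3% ± 4.20 against 69.2% ± 6.18, SD, n = 3 each, two-sided exact permutation test, p = 0.200). Gencode transcripts made up 24.4%, 20.3% and 21.8% in hiPSC-EV and 14.6%, 18.5% and 12.0% in CMi-EV (22.2% ± 2.04 against 15.01% ± 3.29, exact permutation test, p = 0.1). With 3 libraries against 3, 0.1 is the smallest p this test can give. For tRNA, piRNA and circular RNA the groups overlapped (exact permutation test, p = 0.600, 0.900 and 0.400).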

How the data were processed

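Small RNA had been sequenced from 12 EV preparations with a Norgen small RNA library kit on a NextSeq 500, and 6 of them entered this comparison. The authors ran exceRpt 4.6.2 (hg38; miRBase 21) and deposited expected counts per feature of 5 RNA classes, which were rounded to whole numbers. Of the non-zero deposited counts, 9.42% were not whole for miRNA and 71.1% for gencode transcripts, as reads on several features are divided. The RPM deposited by the authors (scaled to each library's reads) served only for library totals, which were 1514392 to 9594408 in hiPSC-EV and 2161205 to 3436814 in CMi-EV. The deposited tables of TMM-normalized CPM and the RPM of other classes were not used for tests. The submitters' processing notes name edgeR 3.24.0.

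Each class was fitted on the 6 libraries with the two-sided quasi-likelihood test of edgeR 4.0.16 in R 4.3.3, with TMM scaling within the class and Benjamini-Hochberg adjustment over all features tested. DE means an FDR of at most 0.05 together with an absolute log2 fold change of 1 or more. Filters were 5 CPM for miRNA and seeds and 5 counts for other classes, in each of the 3 libraries of either group. Arm ratios, log2((5p + 0.5)/(3p + 0.5)), were tested with limma 3.58.1, and class shares with an exact permutation test over 20 assignments. Features with 1 to 3 counts in a group are given as a ratio with an exact 95% Clopper-Pearson interval, for counting error only. Scripts were tested on simulated data. The replicates are stated to be independent cultures.

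Alternatives were other scaling, filters and tests (DESeq2 1.42.0), dispersions from all 12 libraries, a replicate block, each library left out, and, added after seeing the data, thinning to equal depth and a filter that asks for the minimum in all 6 libraries. Text, tables and figures were made with Python 3.11.15, pandas 2.3.3, numpy 2.4.6, scipy 1.17.1 and matplotlib 3.10.9. Hosts of hairpins are from GENCODE 44.

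The comparison, its lists (24 of miRNA, 8 of transcripts) and its tests were chosen with earlier results of these data known. Named miRNA are, in each direction and among DE miRNA with groups apart, the 6 of largest fold and the 6 of highest mean CPM, up to 4 per list by mean CPM, and 2 just inside and 2 just outside the thresholds. For other classes 4 took the place of 6, with 4 seeds in each direction and the 4 arm ratios of lowest p. Not every feature so chosen is described. MiR-99a-5p, miR-302a-3p, miR-302d-3p, miR-20b-5p, miR-21-5p, miR-191-5p, miR-148a-3p, miR-423-5p, list members named without an error, NANOG, SOX2, SALL4, RYR2, ATP2A2, TNNI3, MYL2, CSRP3, PLN, NPPA, NPPB, APOB and SERPINA1 were chosen after their values were seen. Media-only preparations and measurements on cells and vesicles were not analysed here.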

Additional observations from a re-analysis of the deposited data

How the results depend on the processing

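No call was reversed in any class under any alternative. The 140 DE miRNA were 118 to 163 under other scaling, filters and tests, and 123 to 176 when each library was left out, with 118 to 129 shared. Restricted to miRNA that reached 5 CPM in all 6 libraries, 82 were DE (33 higher, 49 lower) and 49 seeds, since 182 and 128 were tested. Libraries with the same replicate number did not deviate together in miRNA (r of deviations from -0.060 to -0.0045). In tRNA, r was -0.215 to -0.123 for the same number and 0.0241 to 0.143 for different numbers. Whether the numbers stand for shared runs was not tested. A replicate block gave 99 DE miRNA, 95 of them shared, 9 tRNA, 45 gencode features and no piRNA or circular RNA (edgeR, with 5 and 39 at an unadjusted p under 0.05). Of the gencode features, 148 were DE with filterByExpr, 45 with no filter (28873 tested), 26 with the minimum reached in all 6 libraries, 228 after thinning and 747 to 2158 with 1 library left out. Of tRNA, 12 were DE when scaled by library totals and 12 to 86 with 1 library left out. Of piRNA, 12 were DE with DESeq2, 1 with filterByExpr, 0 with no filter and 0 with the minimum in all 6 libraries (edgeR, with 18 and 1 at an unadjusted p under 0.05), and 2 to 29 with 1 library left out. Of circular RNA, 16 were DE with no filter and 5 with the minimum in all 6. Arm ratios gave 4 calls with at least 20 counts and 4 to 9 with 1 library left out. Where not stated, the cause of these differences was not tested. Depth limits circular RNA most: 3 counts are 128 to 279.5 CPM there, 5.30 to 28.6 CPM for piRNA and 2.91 to 10.2 CPM for gencode features.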

Other observations

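The other 2 EV groups of the series were not part of the comparison, and their values for the DE miRNA are given on a scale common to all 12 libraries. For the 53 miRNA higher in CMi-EV, the mean of CPC-EV (day 6) lay between hiPSC-EV and CMi-EV in 38, on the far side of hiPSC-EV in 10, level with it in 2 and beyond CMi-EV in 3. The mean of CMm-EV (day 35) lay beyond CMi-EV in 35 of them. For the 87 miRNA lower in CMi-EV, CPC-EV lay between in 71. CMm-EV was lower than CMi-EV in 43 of them, and in 24 more both were at 0. MiR-100-5p measured 1613, 1591 and 2735 CPM in CPC-EV, close to hiPSC-EV, and 279630, 472091 and 502772 in CMm-EV. MiR-302b-3p measured 67459, 73775 and 46299 CPM in CPC-EV and 295, 97.1 and 73.8 in CMm-EV, so that it was still abundant at day 6. MiR-375-3p was highest in CPC-EV, at 4423, 4838 and 2834 CPM, and low in CMm-EV, at 4.86, 3.18 and 29.2. These miRNA were chosen after their values were seen, and no test was run on them.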
